A study of Rattus norvegicus with 12 samples.

Results

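The antioxidant and glutathione enzymes of the rat heart were followed over both ventricles in room air and in chronic hypoxia. Its members were picked by gene name and held the glutathione S-transferases (Gst), glutathione peroxidases (Gpx), peroxiredoxins (Prdx) and superoxide dismutases (Sod), with 15 single genes: Cat, Hmox1, Hmox2, Nqo1, Gclc, Gclm, Gss, Gsr, Txn1, Txn2, Txnrd1, Txnrd2, Txnip, Nfe2l2 and Keap1. Of 23526 entries with a gene symbol, 52 had such a name, and 43 of these reached a deposited abundance of at least 0.5 TPM (a transcript's length-scaled share of its library) in 3 or more of the 12 libraries and are called members here. The other 9 (Gpx2, Gpx5, Gpx6, Gsta3, Gsta5, Gstm3, Gstm6, Gstm6l and Gstt4) stayed below that level, with Gstm6l the highest at 0.432 TPM. Gsta2 was just inside the limit, with 4 libraries at or above it, all from LV. All 43 members passed the expression filter of the test.

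The libraries came from the free walls of the right ventricle (RV) and left ventricle (LV) of 6 adult male Sprague Dawley rats aged 3 to 4 months, and no animal carried a transgene or a deletion according to the labels and methods. The rats of the hypoxic groups RVH and LVH (n = 3 libraries each, rats 1, 2 and 4) had spent 2 weeks at 10% O2 in a hypobaric chamber. Those of the normoxic groups RVN and LVN (n = 3 each, rats 1, 2 and 3) were housed in room air for the same time, and each heart gave an RV and an LV library. A rat number stands for different animals in the 2 exposures. Whole tissue was used, so fewer cells of a type and less RNA per cell cannot be told apart.

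These enzymes remove superoxide, peroxides and reactive organic molecules. Superoxide dismutases turn superoxide into hydrogen peroxide, which catalase, the glutathione peroxidases and the peroxiredoxins then reduce. Glutathione peroxidases draw on glutathione and most peroxiredoxins on thioredoxin, and both of these are kept reduced by enzymes that spend NADPH. Many of the genes respond to the transcription factor Nrf2 (Nfe2l2), which Keap1 marks for degradation. Heart muscle is rich in mitochondria, a source of superoxide.

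The 12 libraries had nominal totals of 21458174 to 39972399 estimated counts, and mitochondrially encoded transcripts made up 38.26% to 50.56% of their TPM. This mitochondrial share was 45.07% to 45.78% in RVN and 38.26% to 44.1% in RVH. In LV it was 46.93% to 50.56% in LVN and 38.74% to 42.33% in LVH, so exposures did not overlap in either ventricle. Shares of deposited TPM of other genes depend on it. All 12 cardiac myocyte markers on a fixed list were detected, with summed levels of 49290 to 79870 per library. All levels below are TMM-scaled TPM, which are the deposited TPM rescaled by the trimmed mean of M values (TMM), and they carry the unit TPM. Fold changes are on the log2 scale with their standard error (SE), from edgeR's quasi-likelihood test over 13756 genes in 1 model of the 12 libraries. A gene is called where its Benjamini-Hochberg adjusted p was under 0.05. Scaling by library totals shifted the median over all genes to a log2 fold change of 0.12 in RVH against RVN, 0.17 in LVH against LVN, 0.19 in RVN against LVN, 0.13 in RVH against LVH and 0.16 for RV against LV over 6 hearts, and directions are given relative to the TMM scale. The libraries of a group come from separate animals. The p-values rest on a spread within groups that is pooled over the 4 groups and moderated across genes. In this model RVN against LVN, RVH against LVH and the difference of hypoxia effects ignore that both ventricles of a heart were taken. For RV against LV over 6 hearts, the spread is that of the difference within hearts. Of the other marker lists in RVH against RVN, 2 of 3 neutrophil and 4 of 12 pan-leukocyte markers were called higher. So were 1 of 9 endothelial and 1 of 6 atrial markers (Nppa), and 1 endothelial and 1 atrial marker (Stard10) were called lower. The paper lists Nppa among the genes altered by hypoxia in both ventricles. Of the smooth muscle and epicardial markers 0 of 9 and 0 of 7 were called. Over all genes 7.43% were called higher and 7.6% lower.

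In the right ventricle hypoxia went with higher levels of some of these enzymes and lower levels of others. In RVH against RVN 14 of the 43 members were called (32.6%), where 15% of all genes tested were called. Of these, 7 members were higher (16.3%, against 7.43% of all genes) and 7 lower (16.3%, against 7.6%). The higher genes were the glutathione peroxidases Gpx1, Gpx7 and Gpx8, the peroxiredoxins Prdx1 and Prdx4, the glutathione synthesis gene Gclc and the cytosolic thioredoxin Txn1. The lower genes were the transferases Gsta4, Gstm7 and Gstz1, the mitochondrial thioredoxin Txn2 and its reductase Txnrd2, catalase (Cat) and Keap1. The median log2 fold change was 0.00 over the members and 0.00 over all genes, and the median size without sign was 0.33 for the members and 0.26 for all genes. The levels of RVH and RVN did not overlap for 12 members that were higher (27.9%) and 11 that were lower (25.6%), against 18.7% and 20% of all genes.

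In the left ventricle Gpx1 was the 1 member called in LVH against LVN (2.33% of 43, against 1.37% of all genes). The groups did not overlap for 6 members that were higher in LVH (14%, against 10.2% of all genes) and for 8 that were lower (18.6%, against 11.2%). The median log2 fold change of the members was 0.01, as was that of all genes.

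**Figure D1:**
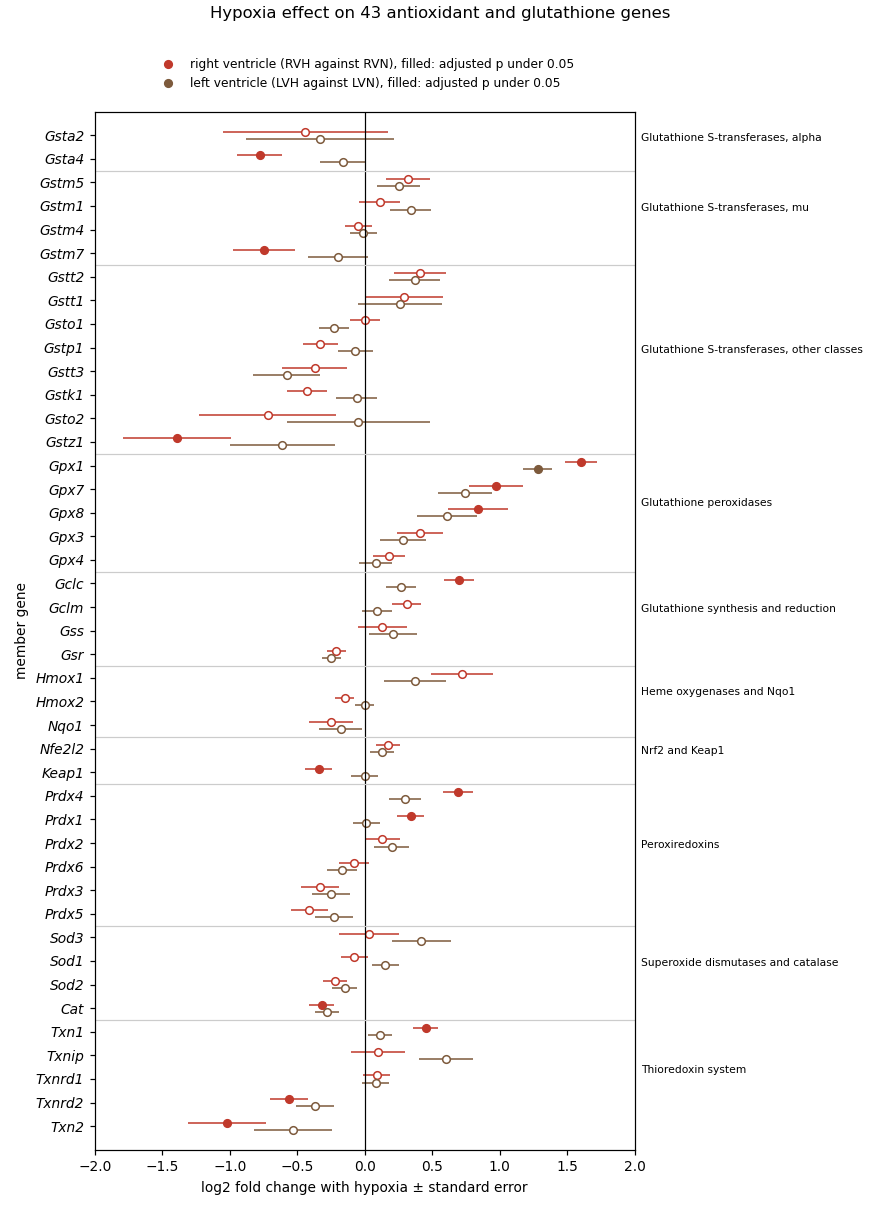
Log2 fold change with hypoxia (horizontal axis, bars ± SE) of each of the 43 members, grouped by class, in the right ventricle (red) and left ventricle (brown), with filled circles for an adjusted p under 0.05. Gpx1 stands furthest to the right in both ventricles, at 1.60 and 1.28, and Gstz1 furthest to the left in RV, at -1.39.

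The 14 calls in RV differed in how far they rested on single libraries. Gpx1, Gclc, Prdx4 and Txn1, 4 of the 14, kept their call under each of 16 alternative settings, which included leaving out each library in turn. The number of members called fell from 14 to 5 without the RVN library of rat 1, to 9 without that of rat 2 and to 7 without that of rat 3. It fell to 5 without the RVH library of rat 1 and to 4 without that of rat 2, and stood at 18 without that of rat 4. The number called over all genes, 2067 of 13756, moved too, to 666, 1440 and 846 without RVN of rats 1, 2 and 3 and to 736, 631 and 2488 without RVH of rats 1, 2 and 4. No lower member was called without RVN of rat 1, RVH of rat 1 or RVH of rat 2. With only the 6 libraries compared, Gpx8, Cat, Gstz1, Txn2, Keap1 and Gstm7 were not called (adjusted p = 0.0556 to 0.0916, edgeR), and without a filter on low counts Cat, Prdx1, Keap1 and Gstm7 were not (0.0519 to 0.0682).

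The promoters of Gpx1, the member with the largest rise, and of the 4 called members that hold an antioxidant response element core, the DNA motif of Nrf2, are printed here so that these letters can be read beside the values below. The sequences are RefSeq promoter windows on the GRCr8 build, from 250 bases before to 30 bases after the gene start, whereas the expression values rest on Rnor 6.0. They lie at chr8:117905212-117905491 (plus strand), chrX:43878483-43878762 (plus), chr5:135383656-135383935 (plus), chr2:198260290-198260569 (minus) and chr6:112525356-112525635 (plus). Capitals mark TGACNNNGC, the antioxidant response element core, and ACGTG, a form of the hypoxia response element core, on either strand, and CACGTG holds ACGTG on both.
Gpx1: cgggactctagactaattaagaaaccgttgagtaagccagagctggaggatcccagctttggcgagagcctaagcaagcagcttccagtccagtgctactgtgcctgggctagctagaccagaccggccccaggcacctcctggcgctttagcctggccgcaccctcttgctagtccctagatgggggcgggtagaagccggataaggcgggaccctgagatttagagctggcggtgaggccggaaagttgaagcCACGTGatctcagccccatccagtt
Prdx4: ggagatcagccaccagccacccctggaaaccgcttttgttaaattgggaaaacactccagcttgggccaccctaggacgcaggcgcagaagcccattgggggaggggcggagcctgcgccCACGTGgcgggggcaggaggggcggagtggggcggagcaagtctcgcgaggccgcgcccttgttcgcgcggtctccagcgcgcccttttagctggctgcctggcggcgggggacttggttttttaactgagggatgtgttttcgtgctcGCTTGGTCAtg
Prdx1: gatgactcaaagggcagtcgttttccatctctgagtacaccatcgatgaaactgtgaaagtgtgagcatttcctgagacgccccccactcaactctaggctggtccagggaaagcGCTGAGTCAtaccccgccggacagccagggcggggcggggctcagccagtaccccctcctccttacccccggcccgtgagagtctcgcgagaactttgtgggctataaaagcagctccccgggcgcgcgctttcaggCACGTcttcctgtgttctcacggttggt
Gstm7: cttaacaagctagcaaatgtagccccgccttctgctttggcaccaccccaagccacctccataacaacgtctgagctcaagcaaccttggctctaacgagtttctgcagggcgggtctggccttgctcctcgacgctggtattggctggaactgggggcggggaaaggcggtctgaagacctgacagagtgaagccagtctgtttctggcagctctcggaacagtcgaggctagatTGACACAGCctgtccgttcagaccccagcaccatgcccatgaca
Gstz1: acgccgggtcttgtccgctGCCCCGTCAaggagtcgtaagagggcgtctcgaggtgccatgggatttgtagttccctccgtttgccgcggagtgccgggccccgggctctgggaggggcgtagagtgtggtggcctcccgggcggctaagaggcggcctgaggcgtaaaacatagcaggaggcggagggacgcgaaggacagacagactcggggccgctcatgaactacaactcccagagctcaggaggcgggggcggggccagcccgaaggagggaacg

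A window was found for 35 of the 43 members. TGACNNNGC was present in 11 of them (31.4%), namely Gclm, Gstm5, Gstm7, Gstp1, Gstz1, Hmox2, Prdx1, Prdx4, Prdx5, Sod2 and Txnrd1, and in at least 1 window of 12.3% of all 27457 genes with a window. ACGTG was in 11 of the 35 (31.4%, against 19.8% of all genes), among them Gpx1, Prdx1 and Prdx4. GCGTG, a further form of the hypoxia core, was in 20 (57.1%, against 30.9%), among them Gclc, Gpx7 and Txn1. Among the 13 called members with a window, 4 held TGACNNNGC, 4 ACGTG and 6 GCGTG. With the letters TCA in place of NNN, the antioxidant core also contains the AP-1 motif TGACTCA, as it does in Prdx1, where the reverse strand is printed. The shares over all genes include every gene with a window, without the abundance limit set for the members, so the 2 sets are not alike. These matches describe the letters and were not tested for binding.

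Glutathione peroxidases. Gpx1 encodes the cytosolic and mitochondrial selenoenzyme that reduces hydrogen peroxide with glutathione. Its level was 437, 474 and 456 TPM in RVN and 1428, 1355 and 1376 TPM in RVH. It was 692, 779 and 646 TPM in LVN and 1444, 1945 and 1743 TPM in LVH. Every hypoxic library lay above every normoxic one in both ventricles. Gpx1 rose in RV by 1.60 on the log2 scale (SE 0.12, adjusted p = 0.000115, edgeR), a 3.04-fold change. In LV it rose by 1.28 (SE 0.11, adjusted p = 0.000657, edgeR), a 2.42-fold change. The difference between these effects was 0.33 (SE 0.16, adjusted p = 0.661, edgeR) and was not called. Both calls held under all alternative settings that were run.

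Gpx1 was the member with the second highest mean level in RVN, after Sod1, and the highest in LVN, RVH and LVH. By TPM it ranked 218 to 225 among all genes of a library in RVN, 129 to 150 in LVN, 55 to 70 in RVH and 58 to 61 in LVH. Its share of the members' summed TPM was 8.53% to 9.11% in RVN and 11.5% to 13.6% in LVN, and 22.6% to 25.0% in RVH and 24.3% to 27.1% in LVH. The members together made up 0.512% to 0.531% of a library's deposited TPM in RVN and 0.483% to 0.518% in LVN. In hypoxia these shares were 0.602% to 0.665% in RVH and 0.611% to 0.69% in LVH. On the TMM scale the members summed to 5013 to 5208 TPM in RVN and 5587 to 5731 TPM in LVN. The hypoxic sums were 5522 to 6101 TPM in RVH and 5947 to 7169 TPM in LVH. Only on the TMM scale did RVN lie below LVN without overlap. In RV the mean sum went from 5116 to 5778 TPM with hypoxia and the mean of Gpx1 alone from 456 to 1386 TPM. In LV these means went from 5639 to 6663 TPM and from 706 to 1711 TPM. Gpx1 thus rose by more than the whole sum in RV and by about as much in LV. Red blood cells also carry Gpx1, and the summed level of 19 erythroid markers moved with exposure, from 3974 to 4980 in RVN, 4610 to 6979 in LVN, 6972 to 11490 in RVH and 6988 to 39060 in LVH. Of the 16 markers tested, 13 had a positive log2 fold change in RVH against RVN, 2 were called higher and 2 lower, and none of the 19 was at 0 in every library. The LVH library of rat 1 had an erythroid sum of 6988, next to the highest normoxic sum of 6979, and a Gpx1 level of 1444 against at most 779 TPM in normoxia. The LVH library of rat 2 had the highest of both, with 39060 and 1945 TPM. The part of red blood cell RNA in the Gpx1 levels was not tested.

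Gpx7 and Gpx8 encode peroxidases of the endoplasmic reticulum, where they take part in oxidative protein folding. Gpx7 was at 11.1, 12.7 and 9.90 TPM in RVN and 23.8, 26.4 and 15.6 TPM in RVH, without overlap. It rose by 0.97 (SE 0.20, adjusted p = 0.0123, edgeR). The call was lost without RVN of rat 3 (adjusted p = 0.0517, edgeR) or RVH of rat 2 (0.0558). In LV it went from 8.23, 9.23 and 8.86 to 18.5, 12.6 and 12.7 TPM, again without overlap, with a log2 fold change of 0.74 (SE 0.20, adjusted p = 0.108, edgeR). Gpx8 was at 9.65, 15.1 and 10.2 TPM in RVN and 22.6, 24.2 and 15.3 TPM in RVH, where the lowest hypoxic library was just above the highest normoxic one. It rose by 0.84 (SE 0.22, adjusted p = 0.0283, edgeR), and the call was lost without RVN of rat 1 or 3 or RVH of rat 1 or 2 (adjusted p = 0.0939 to 0.113, edgeR). Its LV levels were 9.64, 9.79 and 7.90 TPM in LVN and 16.9, 13.4 and 11.3 TPM in LVH, with a log2 fold change of 0.61 (SE 0.22, adjusted p = 0.193, edgeR).

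Fibroblast markers had the same order as Gpx7 and Gpx8 over the RVH libraries. The summed level of 11 such markers was 1921, 2137 and 1819 in RVN and 2350, 2567 and 1640 in RVH, with RVH of rat 2 highest and RVH of rat 4 lowest among the hypoxic RV libraries. In LVN it was 1678, 1416 and 1558 and in LVH 2155, 1613 and 1756, with rat 1 highest in LVH, as for Gpx7 and Gpx8. In RVH against RVN 4 of the 11 fibroblast markers were called higher (Col3a1, Dpt, Mfap4 and Lum) and 1 lower (Gsn). Gsn alone made up 870, 916 and 813 of the RVN sums and 439, 429 and 472 of the RVH sums. The part of fibroblasts in the Gpx7 and Gpx8 levels was not tested.

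The other members of the class changed less. Gpx3, the secreted plasma form, ranged from 158 to 289 TPM and Gpx4, which reduces lipid peroxides in membranes, from 304 to 443 TPM over the 12 libraries. In RV both had hypoxic levels above all normoxic ones, and neither was called. The class summed to 988 ± 41.4 TPM in RVN, 1284 ± 109 in LVN, 2043 ± 73.2 in RVH and 2358 ± 250 TPM in LVH (mean ± SD, n = 3).

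**Figure D2:**
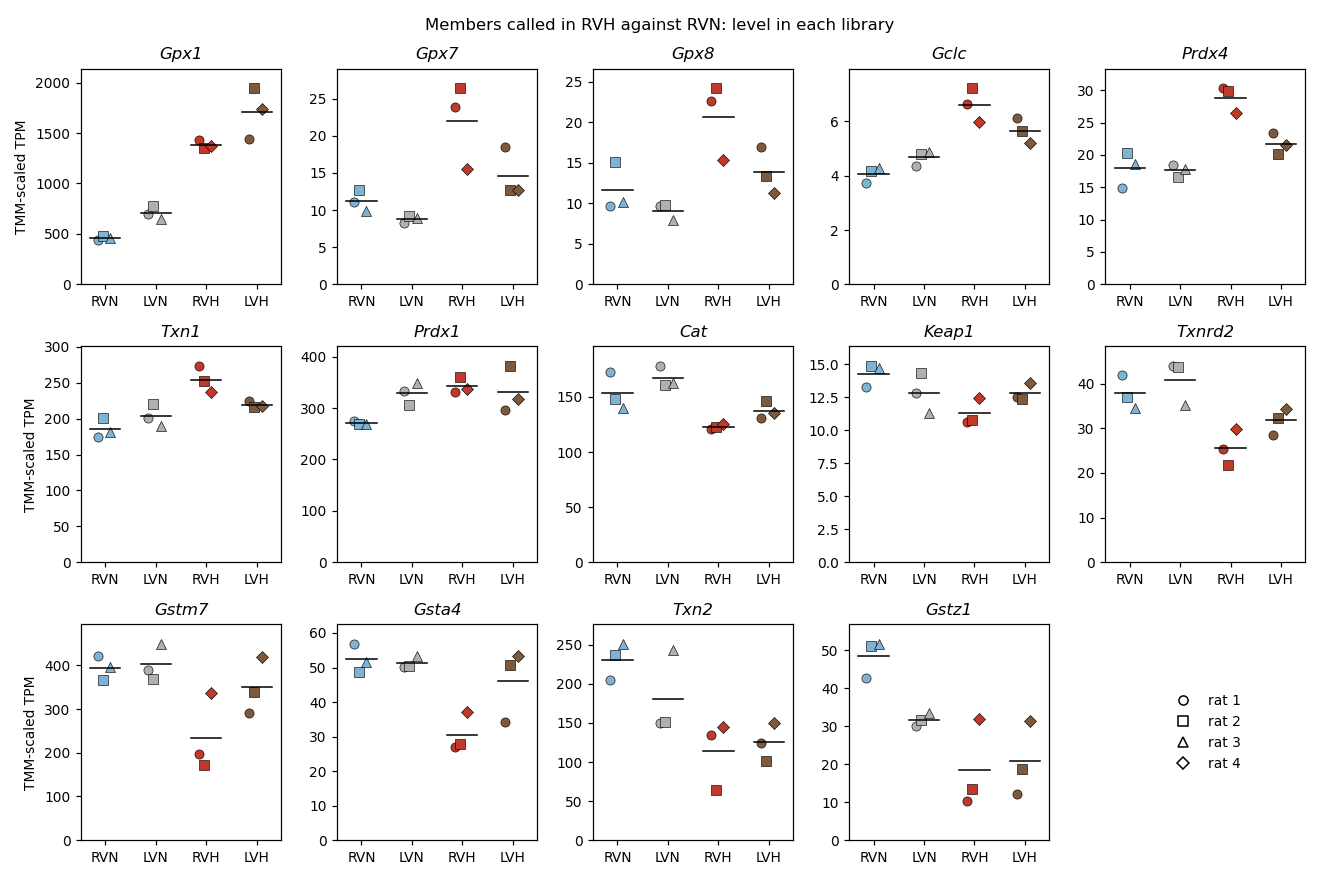
Level in TMM-scaled TPM (vertical axes, each from 0) of the 14 members called in RVH against RVN, for each of the 12 libraries, with the rat shown by the marker and the group mean by a line. Gpx1 separates exposures in both ventricles, whereas for Gstm7, Gsta4 and Gstz1 the RVH library of rat 4 lies above those of rats 1 and 2.

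Glutathione synthesis and reduction. Gclc encodes the catalytic subunit of glutamate-cysteine ligase, the rate-limiting enzyme of glutathione synthesis. It was at 3.73, 4.18 and 4.28 TPM in RVN and 6.65, 7.23 and 5.995 TPM in RVH. It was at 4.35, 4.80 and 4.89 TPM in LVN and 6.13, 5.63 and 5.19 TPM in LVH. Exposures did not overlap in either ventricle. Gclc rose in RV by 0.70 (SE 0.11, adjusted p = 0.00506, edgeR), a 1.63-fold change that held in all settings, and had a log2 fold change of 0.27 in LV (SE 0.11, adjusted p = 0.228, edgeR).

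Gclm, the modifier subunit of the same ligase and the most abundant gene of this class, was at 12.8, 11.5 and 12.0 TPM in RVN and 14.5, 14.4 and 16.03 TPM in RVH. The groups did not overlap, and its log2 fold change of 0.31 was not called (SE 0.11, adjusted p = 0.0818, edgeR). In LV Gclm was at 12.2, 12.6 and 15.7 TPM in LVN and 12.9, 15.4 and 14.98 TPM in LVH, with overlap (log2 fold change 0.09, SE 0.11, adjusted p = 0.696, edgeR). Gss, glutathione synthetase, ranged from 5.27 to 8.75 TPM with overlap between exposures. Gsr, which returns oxidised glutathione to its reduced form, lay at 11.7 to 12.3 TPM in the normoxic and 9.65 to 10.98 TPM in the hypoxic libraries, without overlap in either ventricle, and was not called.

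Peroxiredoxins. Prdx4 is the form of the endoplasmic reticulum and Prdx1 a cytosolic one. Prdx4 was at 14.9, 20.4 and 18.6 TPM in RVN and 30.3, 29.9 and 26.4 TPM in RVH. It rose by 0.69 (SE 0.11, adjusted p = 0.00641, edgeR), a 1.61-fold change that held in all settings. In LV the levels were 18.4, 16.6 and 17.9 TPM in LVN and 23.4, 20.1 and 21.6 TPM in LVH, which did not overlap (log2 fold change 0.30, SE 0.12, adjusted p = 0.21, edgeR). The 3 peroxidases of the endoplasmic reticulum among the members, Prdx4, Gpx7 and Gpx8, were thus all called higher in RV, a grouping made after their values were seen.

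Prdx1 was at 276, 269 and 268 TPM in RVN and 332, 361 and 337 TPM in RVH. It rose in RV by 0.34 (SE 0.10, adjusted p = 0.0403, edgeR), and the call was lost without any of the 6 libraries compared (adjusted p = 0.0525 to 0.119, edgeR). In LV Prdx1 was at 333, 306 and 349 TPM in LVN and 297, 382 and 317 TPM in LVH, a difference near 0 (log2 fold change 0.01, SE 0.10, adjusted p = 0.968, edgeR).

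Prdx2, the most abundant peroxiredoxin and a major protein of red blood cells, was not called. It was at 387, 377 and 399 TPM in RVN and 382, 444 and 446 TPM in RVH (log2 fold change 0.13, SE 0.13, adjusted p = 0.537, edgeR). In LV it was at 433, 460 and 413 TPM in LVN and 418, 615 and 471 TPM in LVH (log2 fold change 0.20, SE 0.13, adjusted p = 0.441, edgeR). Its highest level was in LVH of rat 2, the library with the highest erythroid sum, whose part was not tested. Prdx3, the mitochondrial form, was at 201 to 309 TPM and Prdx5, found in mitochondria and peroxisomes, at 198 to 312 TPM over the RV libraries, with the lowest values in RVH of rats 1 and 2. Neither they nor Prdx6, at 182 to 262 TPM over all libraries, was called. Prdx5 was lower in RVH than in RVN without overlap (log2 fold change -0.41, SE 0.14, adjusted p = 0.0646, edgeR). Several alternatives called Prdx5, namely library totals, the likelihood ratio test, DESeq2, both limma fits, the block by number and leaving out RVH of rat 4.

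Thioredoxin system. Txn1 is the thioredoxin of cytosol and nucleus, and Txn2 and Txnrd2 are the mitochondrial thioredoxin and its reductase. Txn1 was at 174, 200 and 181 TPM in RVN and 273, 252 and 237 TPM in RVH. It rose by 0.45 (SE 0.09, adjusted p = 0.00987, edgeR), a 1.37-fold change that held in all settings. Txn1 in LV was at 200, 221 and 189 TPM in LVN and 224, 216 and 217 TPM in LVH, with overlap (log2 fold change 0.11, SE 0.09, adjusted p = 0.574, edgeR).

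Txn2 was at 205, 237 and 251 TPM in RVN and 134, 63.8 and 145 TPM in RVH, a 2.03-fold lower level. The log2 fold change was -1.02 (SE 0.29, adjusted p = 0.0391, edgeR). The call was lost without any RVN library or without RVH of rat 1 or 2 (adjusted p = 0.0753 to 0.105, edgeR), with library totals (0.0625) and by limma with a pseudocount of 0.1 (0.0501). LV levels of Txn2 were at 150, 151 and 243 TPM in LVN and 125, 102 and 150 TPM in LVH, where the highest hypoxic library reached the lowest normoxic one to the digits given (log2 fold change -0.53, SE 0.29, adjusted p = 0.364, edgeR). The hypoxic rat 2 had the lowest level in both ventricles. Txnrd2 was at 42.0, 37.1 and 34.7 TPM in RVN and 25.3, 21.7 and 30.0 TPM in RVH. It fell by 0.56 on the log2 scale (SE 0.14, adjusted p = 0.0219, edgeR), with the call lost without RVN of rat 1 or RVH of rat 1 or 2 (adjusted p = 0.0748 to 0.0925, edgeR). In LV Txnrd2 was at 43.9, 43.7 and 35.2 TPM in LVN and 28.5, 32.3 and 34.4 TPM in LVH, without overlap (log2 fold change -0.37, SE 0.14, adjusted p = 0.201, edgeR).

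Txnip, which binds and inhibits thioredoxin and restrains glucose uptake, had the highest mean level of the class. It was at 263, 346 and 231 TPM in RVN and 334, 243 and 324 TPM in RVH, with overlap (log2 fold change 0.10, SE 0.20, adjusted p = 0.779, edgeR). In LV it was at 184, 281 and 242 TPM in LVN and 346, 299 and 422 TPM in LVH, without overlap, and the log2 fold change of 0.60 was not called (SE 0.20, adjusted p = 0.165, edgeR). Txnrd1, the cytosolic reductase, stayed between 13.9 and 19.03 TPM.

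Superoxide dismutases and catalase. Catalase, the peroxisomal enzyme that splits hydrogen peroxide, was at 173, 148 and 140 TPM in RVN and 121, 123 and 125 TPM in RVH for its gene Cat. It fell by 0.32 on the log2 scale (SE 0.09, adjusted p = 0.0358, edgeR). The call was lost without RVN of rat 1 or 2 or RVH of rat 1 or 2 (adjusted p = 0.0595 to 0.156, edgeR), and with library totals (0.246). In LV Cat was at 178, 161 and 163 TPM in LVN and 131, 147 and 135 TPM in LVH, without overlap (log2 fold change -0.28, SE 0.09, adjusted p = 0.143, edgeR).

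Sod1, the cytosolic copper and zinc enzyme and the most abundant member in normoxic RV, was not called. It was at 489, 509 and 480 TPM in RVN and 450, 455 and 495 TPM in RVH (log2 fold change -0.08, SE 0.10, adjusted p = 0.636, edgeR). In LV it was at 519, 547 and 536 TPM in LVN and 515, 673 and 588 TPM in LVH (log2 fold change 0.15, SE 0.10, adjusted p = 0.456, edgeR). The groups overlapped in both ventricles, and the direction in RV turned with library totals. Sod2, the mitochondrial manganese enzyme, ranged from 192 to 283 TPM, and the extracellular Sod3 from 36.2 to 73.2 TPM with its highest level in LVH of rat 1.

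Glutathione S-transferases. These enzymes join glutathione to reactive organic molecules. Of 14 members, 3 were called lower in RVH against RVN and 0 higher, where 7.6% of all genes were called lower and 7.43% higher. Members of the alpha and mu classes are close paralogs, and the quantification divides reads that several of them share, so values of single alpha and mu genes are uncertain.

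Gsta4, which is known for conjugating the lipid peroxidation product 4-hydroxynonenal, was at 56.8, 48.8 and 51.6 TPM in RVN and 26.9, 27.7 and 37.1 TPM in RVH. It fell by 0.78 on the log2 scale (SE 0.17, adjusted p = 0.0139, edgeR), with the call lost without RVN of rat 1 or RVH of rat 1 or 2 (adjusted p = 0.059 to 0.0635, edgeR). Gsta4 in LV was at 50.2, 50.3 and 53.2 TPM in LVN and 34.2, 50.7 and 53.2 TPM in LVH, where the library of rat 1 alone lay below the normoxic ones (log2 fold change -0.16, SE 0.17, adjusted p = 0.667, edgeR). The other alpha gene, Gsta2, was near the limit of 0.5 TPM, at 0.117 to 0.726 TPM.

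Gstm7 was the most abundant transferase. It was at 422, 366 and 396 TPM in RVN and 197, 171 and 337 TPM in RVH. It fell by 0.75 (SE 0.23, adjusted p = 0.0471, edgeR), and the call was lost without any RVN library or without RVH of rat 1 or 2 (adjusted p = 0.0741 to 0.161, edgeR). LV levels of Gstm7 were at 391, 369 and 449 TPM in LVN and 291, 340 and 420 TPM in LVH, with overlap (log2 fold change -0.20, SE 0.22, adjusted p = 0.679, edgeR). The other mu genes, Gstm1, Gstm4 and Gstm5, lay between 8.70 and 31.8 TPM and none was called.

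Gstz1, which also serves in tyrosine breakdown as maleylacetoacetate isomerase, had the largest fall of the set. It was at 42.8, 51.1 and 51.6 TPM in RVN and 10.3, 13.5 and 31.9 TPM in RVH, a 2.62-fold lower level. The log2 fold change was -1.39 (SE 0.40, adjusted p = 0.0393, edgeR), and the call was lost without any RVN library or without RVH of rat 1 or 2 (adjusted p = 0.0822 to 0.144, edgeR). LV levels of Gstz1 were at 30.0, 31.6 and 33.4 TPM in LVN and 12.1, 18.8 and 31.4 TPM in LVH (log2 fold change -0.61, SE 0.39, adjusted p = 0.447, edgeR). The hypoxic rats kept their order in both ventricles, with rat 1 lowest, rat 2 next and rat 4 within the range of LVN.

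Gstp1, which had the highest mean level of the other transferase classes, was at 101, 114 and 111 TPM in RVN and 74.9, 81.2 and 103 TPM in RVH, with overlap (log2 fold change -0.33, SE 0.13, adjusted p = 0.111, edgeR). Gstp1 in LV was at 108, 111 and 102 TPM in LVN and 87.1, 113 and 107 TPM in LVH (log2 fold change -0.07, SE 0.13, adjusted p = 0.834, edgeR), and with library totals this direction turned. Gsto1 ranged from 78.9 to 117 TPM and Gstk1 from 42.9 to 75.7 TPM. Gstt2 ranged from 6.34 to 13.1 TPM, and Gstt1, Gstt3 and Gsto2 from 0.597 to 3.45 TPM.

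Among the RVH libraries that of rat 4 was highest for each of the 7 lower members and for cardiac myocyte markers. The summed level of 12 such markers was 68280, 64880 and 67440 in RVN and 51590, 49290 and 65250 in RVH. In LVN it was 72570, 77940 and 74900, and in LVH 61480, 79870 and 77950, with rat 1 lowest, as for Gsta4, Gstm7, Gstz1, Txnrd2 and Cat. Of the 12 markers, 0 were called higher and 4 lower in RVH against RVN (Atp2a2, Myh6, Tnnt2 and Ckm). The part of myocyte RNA in the lower levels was not tested.

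**Figure D3:**
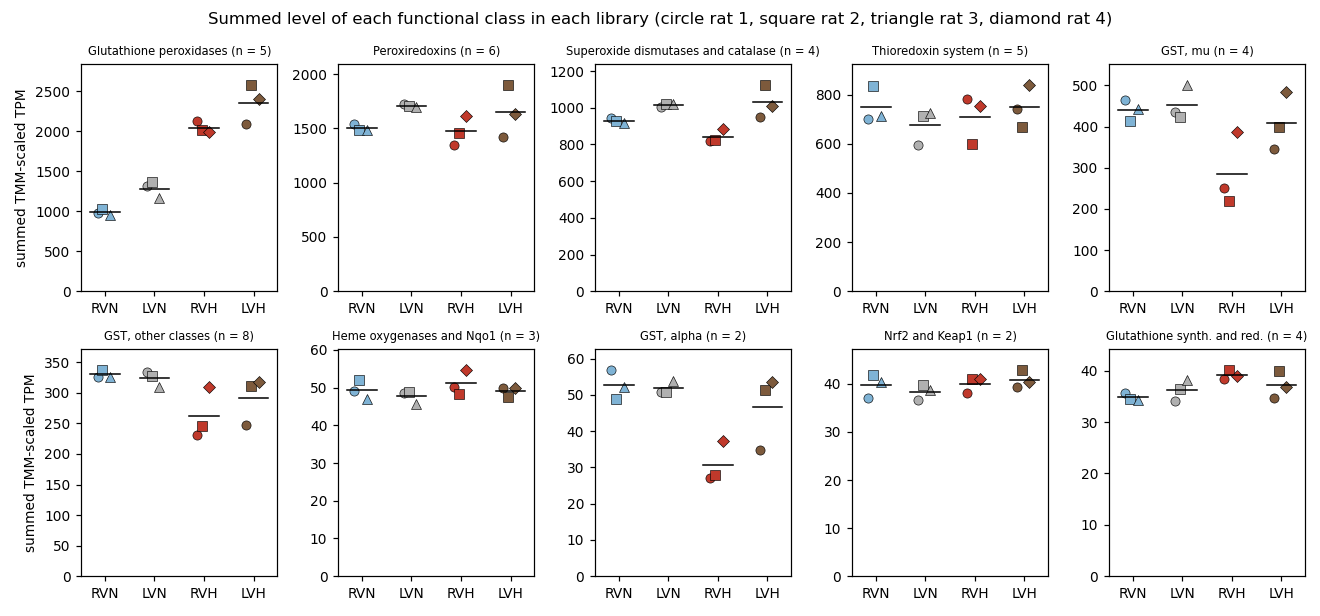
Summed TMM-scaled TPM (vertical axes, each from 0) of the members of each class in each library, with the rat shown by the marker, the group mean by a line and the number of genes in brackets. The glutathione peroxidases separate the exposures, at 954 to 1369 TPM in normoxic and 1987 to 2583 TPM in hypoxic libraries, and the sums of the mu class overlap between RVN and LVN while those of RVH lie below both.

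Heme oxygenases and Nqo1. Hmox1, the inducible enzyme that breaks down heme, was at 7.33, 12.4 and 9.25 TPM in RVN and 17.7, 13.9 and 16.3 TPM in RVH. The groups did not overlap, and the log2 fold change of 0.72 was just short of the threshold (SE 0.23, adjusted p = 0.0532, edgeR). It was called under 5 of the alternative settings, among them DESeq2 (adjusted p = 0.0187) and without RVN of rat 2 (0.0347, edgeR). LV levels of Hmox1 were at 7.10, 10.6 and 8.83 TPM in LVN and 14.02, 8.34 and 12.0 TPM in LVH, with overlap (log2 fold change 0.37, SE 0.23, adjusted p = 0.425, edgeR). Macrophages clear heme with Hmox1. The summed level of 20 macrophage and monocyte markers was 200, 277 and 228 in RVN and 518, 427 and 339 in RVH. In LVN it was 186, 129 and 121 and in LVH 283, 183 and 183. The libraries had the same order by Hmox1 in RVN, but not in RVH or LVN, and rat 1 was highest by both in RVH and LVH. In RVH against RVN 8 of the 19 markers tested were called higher and 0 lower, and the part of these cells in Hmox1 was not tested.

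Hmox2, the constitutive form and the most abundant of this class, was at 29.6, 28.5 and 27.8 TPM in RVN and 24.7, 25.5 and 27.4 TPM in RVH (log2 fold change -0.15, SE 0.07, adjusted p = 0.161, edgeR). In LV it was at 28.2, 27.6 and 27.8 TPM in LVN and 27.3, 28.6 and 28.01 TPM in LVH (log2 fold change 0.00, SE 0.07, adjusted p = 0.983, edgeR). Nqo1, a quinone reductase and classical Nrf2 target, was at 12.2, 11.2 and 9.85 TPM in RVN and 7.71, 9.08 and 11.1 TPM in RVH. The groups overlapped (log2 fold change -0.25, SE 0.16, adjusted p = 0.312, edgeR). In LV Nqo1 was at 13.2, 10.5 and 9.08 TPM in LVN and 8.62, 10.5 and 9.89 TPM in LVH, with overlap (log2 fold change -0.18, SE 0.16, adjusted p = 0.614, edgeR).

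Nrf2 and Keap1. Nfe2l2, which encodes Nrf2, was at 23.8, 27.0 and 25.7 TPM in RVN and 27.5, 30.2 and 28.5 TPM in RVH, without overlap and not called (log2 fold change 0.17, SE 0.09, adjusted p = 0.203, edgeR). Nfe2l2 in LV was at 23.9, 25.4 and 27.4 TPM in LVN and 26.7, 30.6 and 26.8 TPM in LVH (log2 fold change 0.13, SE 0.09, adjusted p = 0.467, edgeR). Keap1 was at 13.3, 14.9 and 14.7 TPM in RVN and 10.6, 10.8 and 12.5 TPM in RVH. It fell in RV by 0.34 (SE 0.10, adjusted p = 0.0452, edgeR), close to the threshold. The call was lost without any RVN library or without RVH of rat 1 or 2 (adjusted p = 0.072 to 0.168, edgeR), and with library totals (0.308). In LV Keap1 was at 12.8, 14.3 and 11.3 TPM in LVN and 12.6, 12.4 and 13.6 TPM in LVH (log2 fold change 0.00, SE 0.10, adjusted p = 0.997, edgeR). Nrf2 is regulated largely through its protein, which RNA levels do not show.

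The ventricles were compared within each exposure in the same model. In normoxia 0 of 43 members were called in RVN against LVN, where 3 of 13756 genes were called (0.0218%, with 0.0145% higher and 0.00727% lower), and 5 members had an unadjusted p under 0.05 by edgeR's quasi-likelihood test, as had 1278 of all genes. DESeq2 and edgeR's likelihood ratio test each called 1 member, Gpx1, among 78 and 92 genes. In hypoxia 0 members were called in RVH against LVH, against 0.451% of all genes (0.174% higher and 0.276% lower), with 13 members and 2300 of all genes at an unadjusted p under 0.05 by the same test. DESeq2 called 4 members (Gsta4, Prdx4, Sod1 and Sod2) among 515 genes. With the rat as a block, which the labels allow since both ventricles of a heart were taken, 1 member (Hmox1, higher in RVH) was called among 257 genes in place of 62, and 19 members had an unadjusted p under 0.05. In normoxia that block called 0 members and 2 genes. The levels of RVN and LVN did not overlap for 6 members that were higher in RVN (14%, against 9.93% of all genes) and 11 that were lower (25.6%, against 8.81%). Among the 11 was Gsta2, which was admitted through LV libraries alone. The levels of RVH and LVH did not overlap for 3 that were higher in RVH (6.98%, against 9.41%), namely Prdx4, Txn1 and Gstt3, and 5 that were lower (11.6%, against 8.43%), namely Gpx1, Sod1, Sod2, Cat and Gstm1. Gpx1 was lower in RVN than in LVN without overlap, by a log2 difference of -0.63 (SE 0.11, adjusted p = 0.145, edgeR). In hypoxia the difference was -0.30 (SE 0.11, adjusted p = 0.21, edgeR), and without LVH of rat 1 the adjusted p was 0.0416. The effects of hypoxia in RV and LV did not differ for any member at the threshold, where 0 of 13756 genes were called (0.0%) and the smallest adjusted p of a member was 0.581 by edgeR. Unadjusted p was under 0.05 for 6 members and 1046 of all genes, and neither DESeq2 nor the likelihood ratio test called 1 of them. With the rat as a block edgeR again called 0 members and 0 genes. Its unadjusted p was then under 0.05 for 11 members and 1696 of all genes.

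Over the 6 hearts together, with the rat as a block, 0 members were called between RV and LV, against 2.23% of all genes (1.21% higher and 1.03% lower in RV). An unadjusted p under 0.05 was found for 20 of the 43 members and 2846 of the 13756 genes. DESeq2 called 4 members among 587 genes and the likelihood ratio test 6 among 1015. The members closest to the threshold were Gpx1, at a log2 difference of -0.46 (SE 0.10, adjusted p = 0.0545, edgeR), and Sod2, at -0.27 (SE 0.06, adjusted p = 0.0552). Gpx8 followed at 0.46 (SE 0.10, adjusted p = 0.0595, edgeR, and 0.0301 or 0.0299 without RVN or LVN of rat 1) and Gpx7 at 0.46 (SE 0.11, adjusted p = 0.0722). Sod1 was at -0.23 (SE 0.07, adjusted p = 0.144, edgeR) and Cat at -0.14 (SE 0.05, adjusted p = 0.166, edgeR).

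The direction within each heart divided the members. In all 6 hearts 5 members (11.6%, against 6.79% of all genes) were higher in RV: Gpx7, Gpx8, Gstt1, Gstt3 and Hmox1. For Gpx8 the ventricles of normoxic rat 1 were nearly level, at 9.654 TPM in RV and 9.637 TPM in LV. In all 6 hearts 9 members (20.9%, against 6.93%) were lower in RV: Cat, Gpx1, Gsta2, Prdx2, Prdx3, Prdx5, Sod1, Sod2 and Txnrd2. The division depended on the scale, since with deposited TPM and no TMM scaling 8 members were higher in RV in all 6 hearts (Gpx3, Gpx7, Gpx8, Gsr, Gstt1, Gstt3, Hmox1 and Txn1) and 2 were lower (Gpx1 and Gsta2). Gpx7, Gpx8, Gstt1, Gstt3, Hmox1, Gpx1 and Gsta2 kept their direction on both scales. Gsta2 met the limit of 0.5 TPM through LV libraries alone, so its lower level in RV was in part set by that rule. For Gpx1 the log2 difference RV minus LV was -0.66, -0.72 and -0.50 in the normoxic hearts and -0.02, -0.52 and -0.34 in the hypoxic hearts, so that in hypoxic rat 1 the ventricles were nearly level. For Gpx7 it was 0.43, 0.46 and 0.16 in the normoxic and 0.36, 1.06 and 0.30 in the hypoxic hearts. Over the 6 hearts 12 of 12 myocyte markers had a negative log2 difference and 10 of 11 fibroblast and 19 of 19 macrophage markers a positive one on the TMM scale. Their part in the ventricle differences was not tested.

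**Figure D4:**
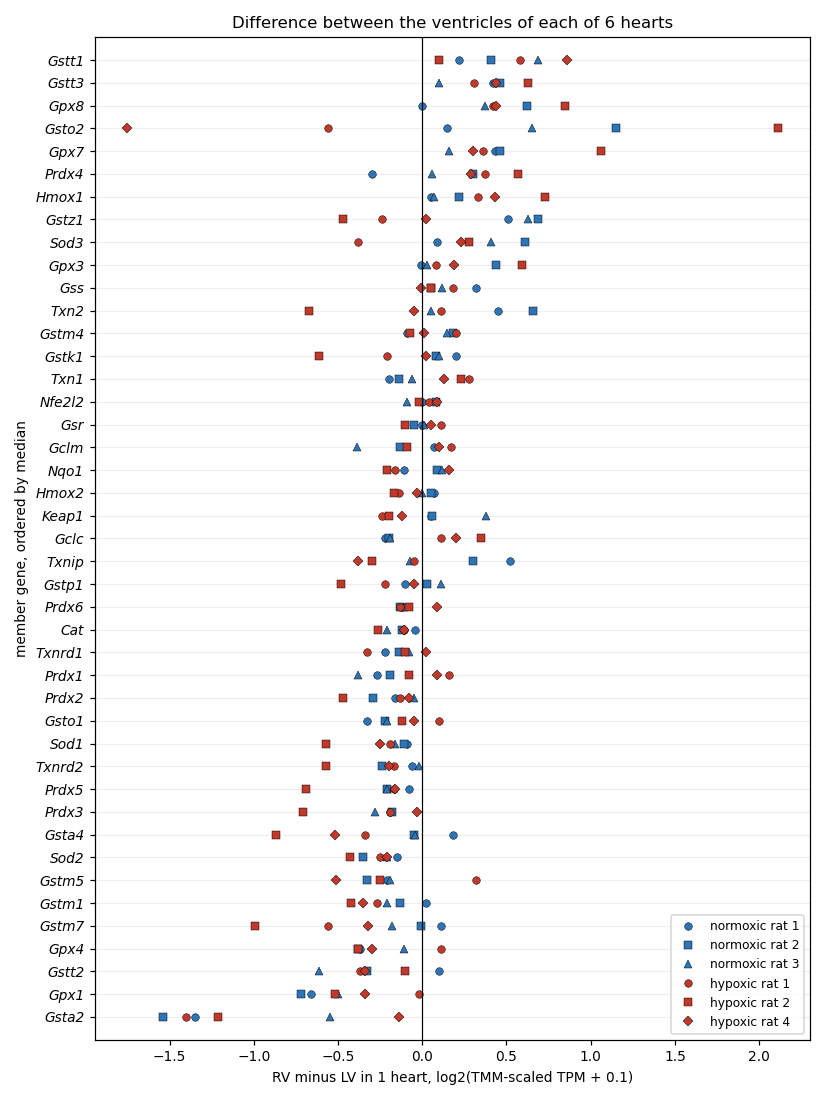
Difference RV minus LV within each heart, in log2(TMM-scaled TPM + 0.1) (horizontal axis), for the 43 members ordered by their median, with normoxic rats in blue and hypoxic rats in red. Gpx7, Gpx8, Gstt1, Gstt3 and Hmox1 lie to the right of 0 in all 6 hearts, and Gpx1, with -0.72 to -0.02, to the left. Gpx8 in normoxic rat 1 is nearly at 0.

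Other redox genes were read from 6 lists in the same test, with 15% of all genes called in RVH against RVN. Among genes of NADPH supply, which feed both reductase systems, 3 of 14 were called higher and 5 lower. Mthfd1, a cytosolic folate enzyme, fell by 0.64 on the log2 scale (adjusted p = 0.00605, edgeR), its mitochondrial relative Mthfd2 rose by 1.24 (adjusted p = 0.00699, edgeR) and the mitochondrial malic enzyme Me3 fell by 0.75 (adjusted p = 0.00734, edgeR). Among sources of superoxide and peroxide 3 of 12 were called higher and 2 lower. The oxidase Nox4, which releases hydrogen peroxide, rose by 1.46 (adjusted p = 0.00929, edgeR). Ncf1, a subunit of the phagocyte oxidase, fell by 0.59 (adjusted p = 0.0135, edgeR), and Cyba, a further subunit named here after its values were seen, rose by 0.63 (adjusted p = 0.0307, edgeR). Nox4 was low, at 0.602 to 0.679 TPM in RVN and 1.53 to 2.09 TPM in RVH. In LV it was at 0.684 to 1.53 TPM in LVN and 0.856 to 1.02 TPM in LVH, so the highest LVN library reached the lowest RVH one. Of 22 other genes of the Nrf2 axis and of transsulfuration, 2 were called higher and 1 lower. The ferritin light chain gene Ftl1 rose by 0.76 (adjusted p = 0.0136, edgeR) and the carbonyl reductase gene Cbr3 by 0.85 (adjusted p = 0.0141, edgeR), while Gfpt1 fell by 0.30 (adjusted p = 0.0428, edgeR).

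In the thiol repair list 1 of 23 was called higher (Msrb1, a methionine sulfoxide reductase, by 0.67, adjusted p = 0.0202, edgeR) and 4 lower, among them Oxr1 (-0.63, adjusted p = 0.0236) and Ptges2 (-0.35, adjusted p = 0.0389). Of 6 genes for selenoproteins and their synthesis 0 were higher and 1 lower (Eefsec, -0.39, adjusted p = 0.0431, edgeR). Of 10 genes for metallothioneins and metal handling 2 were higher and 0 lower, the iron exporter Slc40a1 (0.54, adjusted p = 0.0168, edgeR) and the metallothionein Mt2A (1.26, adjusted p = 0.0272, edgeR). The median log2 fold change of the lists was -0.08 for the Nrf2 axis, 0.01 for NADPH supply, -0.06 for thiol repair, -0.02 for selenoproteins, 0.33 for superoxide and peroxide sources and 0.27 for metal handling, beside 0.00 for all genes. In LVH against LVN 1 gene of the 6 lists was called, the cytosolic malic enzyme Me1 (-0.53, adjusted p = 0.0493, edgeR), where 1.37% of all genes were.

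Between the ventricles over 6 hearts, where 2.23% of all genes were called, 9 genes of the 6 lists were. They were 1 of 22 in the Nrf2 axis, 1 of 14 in NADPH supply, 2 of 23 in thiol repair, 0 of 6 among selenoproteins, 2 of 12 among superoxide and peroxide sources and 3 of 10 in metal handling. Cybb and Ncf4, subunits of the phagocyte oxidase, were higher in RV by 0.91 (adjusted p = 0.0209, edgeR) and 0.93 (adjusted p = 0.0445, edgeR), as were Msrb1 (0.50, adjusted p = 0.0163) and Tf (0.53, adjusted p = 0.0274). The metallothioneins Mt2A and Mt1 were lower in RV, by -1.14 (adjusted p = 0.0184, edgeR) and -0.97 (adjusted p = 0.0212, edgeR). So were Idh1, an NADPH-forming enzyme (-0.57, adjusted p = 0.0163, edgeR), Msrb3 (-0.41, adjusted p = 0.0274) and Sqstm1 (-0.30, adjusted p = 0.044). Cybb and Ncf4 are genes of leukocytes, of whose macrophage list 13 of 19 were called higher in RV, and the part of these cells was not tested.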

How the data were processed

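The authors made stranded libraries from polyadenylated RNA, sequenced single reads, and quantified an Ensembl transcriptome (Rnor 6.0) with kallisto 0.43.1, summed to genes with tximport. The deposited table gives for each library the TPM by the authors and estimated counts by the authors. The estimated counts as deposited equal TPM times 1 constant per library (largest relative spread 1e-14), so their totals are nominal depths and no counting interval was computed. Of 23553 entries, 27 carry only a number as their name (0.0408% to 0.0621% of a library) and were not used.

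Estimated counts were rounded, filtered with filterByExpr, scaled by TMM (factors 0.853 to 1.206) and fitted in edgeR 4.0.16 (R 4.3.3) by quasi-likelihood. The design held 4 group means, which left 8 residual degrees of freedom. RV against LV over 6 hearts had a term for the rat, leaving 5 such degrees. Each SE was taken as log2 fold change over the root of F. The script was tested on simulated data. The members and gene lists were chosen with earlier results of these data known. Library values are given for members called in a comparison, the most abundant member of each class, Nfe2l2, Keap1, Hmox1, Nqo1 and Txnip, and up to 3 called genes are named per other list for RVH against RVN. A called gene of the superoxide and peroxide sources is not reported here. The additional list genes called over the 6 hearts were named after their values were seen. Ventricles of a rat are paired by the labels. Their residuals correlated at 0.037, 0.14 and 0.159 for normoxic rats 1, 2 and 3 and at 0.173, 0.089 and 0.213 for hypoxic rats 1, 2 and 4 (across genes, which are not independent).

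Alternatives were RLE size factors, library totals, the likelihood ratio test, DESeq2 1.42.0, no filter (18703 genes), CPM of at least 1 in 3 libraries (12153 genes), limma 3.58.1 on log2(TPM + 1) and log2(TPM + 0.1) (13400 genes), the 6 libraries compared, replicate blocks and leaving out each library. Promoter windows came from RefSeq (GRCr8). Other calculations used Python 3.11.15, numpy 2.4.6 and pandas 2.3.3.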

Additional observations from a re-analysis of the deposited data

Results flagged for a closer look

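For 4 members the difference between RV and LV had opposite directions in the 3 normoxic and the 3 hypoxic hearts on the TMM scale. For Gclc it was -0.22, -0.20 and -0.19 in the normoxic hearts and 0.11, 0.35 and 0.20 in the hypoxic hearts, and the effect of hypoxia was larger in RV by 0.43 (SE 0.15, adjusted p = 0.581, edgeR). For Txn1 it was -0.20, -0.14 and -0.06 against 0.28, 0.23 and 0.13, with an effect 0.35 larger in RV (SE 0.12, adjusted p = 0.581, edgeR). For Keap1 it was 0.05, 0.06 and 0.38 against -0.24, -0.20 and -0.12, with a difference of effects of -0.34 (SE 0.14, adjusted p = 0.642, edgeR). For Hmox2 it was 0.07, 0.05 and 0.00 against -0.14, -0.17 and -0.03, with a difference of effects of -0.15 (SE 0.10, adjusted p = 0.738, edgeR). These difference tests, which ignore the pairing within hearts, called none of the 4, nor did the fit with the rat as a block. With deposited TPM Gclc kept opposite directions in the 2 exposures, whereas Txn1, Keap1 and Hmox2 did not, with Txn1 higher in RV in all 6 hearts.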

How the results depend on the processing

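Each of 15 called values was recomputed under 16 alternative settings, which gave 240 recomputed values. Of these 180 stayed called, 60 were no longer called and 0 changed direction. The members called in RVH against RVN numbered 4 to 18 with 1 library left out, 8 with only the 6 libraries compared and 17 with a replicate block by number. The numbers name different rats in the 2 exposures, so that block pairs no animals. In LVH against LVN 1 member was called with any library left out, 2 by the likelihood ratio test or DESeq2 and 4 with the block by number. Calls over all genes rose alongside, from 188 in the main fit to 538 (likelihood ratio), 565 (DESeq2) and 656 (block by number). With 1 library left out they numbered 31 to 163. In RVN against LVN 1 was called by DESeq2 or a likelihood ratio test, among 78 and 92 of all genes in place of 3. In RVH against LVH 1 was called by the likelihood ratio test, 4 by DESeq2 and 1 with the rat as a replicate block (Hmox1). With 1 library left out 0 to 3 were called. Here the calls over all genes went from 62 to 500 (likelihood ratio), 515 (DESeq2) and 257 (rat as a block). They ranged from 0 to 594 with 1 library left out, and the fit that called 3 members was the one with 594. Over 6 hearts 1 was called with library totals, 6 by the likelihood ratio test, 4 by DESeq2, 1 and 2 by limma with pseudocounts of 1 and 0.1, 1 without the rat as a block and 0 to 1 with 1 library left out. The rat as a block changed no other count of members called between the ventricles. The number of genes called over the whole table moved with these settings, from 631 to 2884 in RVH against RVN.

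Directions turned for uncalled values near 0. Sod1 in RV moved from -0.08 to 0.04 with library totals and both limma fits, Gstp1 in LV from -0.07 to 0.08 under the same 3 settings and 0.05 without LVH of rat 1, and Cat over 6 hearts from -0.14 to 0.02 under the same 3 settings. Under the block by number Txnip in RV was -0.03, Keap1 in LV -0.08 and Hmox2 in LV -0.03. With 1 library left out, Txnip in RV ranged from -0.02 (RVN of rat 3) to 0.28, Gsta4 in LV from -0.26 to 0.03 (LVH of rat 1), Prdx1 in LV from -0.10 (LVH of rat 2; -0.03 without LVN of rat 2) to 0.09, Keap1 in LV from -0.08 (LVN of rat 3; -0.03 without LVH of rat 4) to 0.09 and Hmox2 in LV down to -0.01 (LVH of rat 2). The cause of these changes was not tested. With 3 libraries a group and no read counts, the depth behind low genes such as Gsta2 is unknown.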
